A study of Arabidopsis thaliana with 9 samples.

Results

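The Arabidopsis microRNA families miR397, miR398, miR408 and miR857, which act in copper economy, were followed as guides of RNA cleavage during heat stress and recovery. Their candidate cleavage sites were taken from every line of the 9 deposited site lists whose microRNA carried 1 of these 4 numbers, both arms included. These lines numbered 88 of 3041, at 42 of 1662 sites in 42 genes, and they named 6 of the 279 guides listed. The lists came from nanoPARE, a method that maps RNA 5′ ends, among them the uncapped ends that a microRNA-guided cut leaves on the 3′ fragment. The plants were wild-type Col-0 seedlings of Arabidopsis thaliana, 7 days old, with no mutation or transgene in any group. HS seedlings were kept for 1 h at 37°C, Recovery seedlings had the same heat and then 2 h at 22°C, and Control seedlings were not heated. Each group had 3 libraries, described in the series as biological replicates.

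When copper is scarce, the transcription factor SPL7 raises these microRNAs in plants, and they lower the transcripts of dispensable copper proteins so that copper is kept for the photosynthetic electron carrier plastocyanin. miR397, miR408 and miR857 act on laccases, copper oxidases of the cell wall that take part in lignin formation. miR408 also acts on small blue copper proteins such as plantacyanin. miR398 acts on the copper/zinc superoxide dismutases CSD1 and CSD2, on CCS, the chaperone that loads them with copper, and on a cytochrome oxidase subunit. Cleavage falls opposite guide bases 10 and 11 and needs close pairing, most of all around the 5′ part of the guide.

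The guides themselves are shown because they set which transcripts could be listed. Each is given 5′ to 3′ as RNA, read from the RefSeq annotation of TAIR10.1, with the seed, bases 2 to 8, in capitals.
miR397a: uCAUUGAGugcagcguugaug
miR397b: uCAUUGAGugcaucguugaug
miR398a-3p: uGUGUUCUcaggucaccccuu
miR398a-5p: aAGGAGUGgcaugugaacaca
miR408-3p: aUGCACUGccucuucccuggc
miR857: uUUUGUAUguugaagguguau
The miR397 guides share their seed and differ by 1 base, G13U from miR397a to miR397b, counted from the guide's 5′ end. miR397a is encoded at chr4:2625960-2625980 on the plus strand and miR397b at chr4:7878730-7878750 on the minus strand. miR857 lies at chr4:7878198-7878218 on the minus strand, with 511 bases between it and miR397b. The other guides are miR398a-3p at chr2:1041012-1041032, miR398a-5p at chr2:1040948-1040968 and miR408-3p at chr2:19319933-19319953, all on the plus strand. The 3p guides of miR398b and miR398c, identical to each other and different from miR398a-3p by U21G, were listed at 0 sites, as was miR408-5p.

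miR397 gave most of the signal. It held 63 lines at 26 sites, 13 for miR397a and 13 for miR397b, and no gene was listed for both although the guides differ by a single base. miR857 held 12 lines at 8 sites, miR408-3p 9 lines at 5 sites, miR398a-3p 3 lines at 2 sites and miR398a-5p 1 line at 1 site. Pairing was graded by the Allen score, a penalty in which 0 is a perfect duplex and 6 was the highest listed value, and a score of 4 or less was taken as well paired. Only 9 sites were well paired, all of miR397, and the other 33, including every site of miR398, miR408 and miR857, scored above 4.

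The sites that carry the results are shown next, as transcript sequence in DNA letters from TAIR10.1, with the bases that form Watson-Crick pairs with the guide in capitals. The first 4 were listed for miR397 and are well paired, and the last is a known target that was not listed. LAC4 (also IRX12, AT2G38080) and LAC17 (AT5G60020) are laccases of lignin formation, CKB3 (AT3G60250) is a regulatory subunit of casein kinase II, SCE1 (AT3G57870) is the enzyme that conjugates SUMO to proteins, and LAC2 (AT2G29130) is another laccase.
LAC4, miR397a: agTCAACGCTGCACTtAATGA
LAC17, miR397a: aATCAAtGCTGCACTtAATGA
CKB3, miR397b: aATCAACGATGCACTCAATaA
SCE1, miR397b: CATtAACGATGCACTtCAgTGA
LAC2, miR397a: aATCAAtGCTGCACTCAATGA
Each sequence is the best pairing match on the transcript, not the deposited position. The match lay 217 bases from the deposited position for LAC4, 199 for SCE1, 61 for CKB3 and 1 for LAC17. All the sites shown lie in coding exons. They are at chr2:15936120-15936140 on the plus strand for LAC4 (exon 5 of 6), chr5:24169068-24169088 on the plus strand for LAC17 (exon 5 of 6), chr3:22271862-22271882 on the minus strand for CKB3 (exon 1 of 5), chr3:21429298-21429319 on the minus strand for SCE1 (exon 3 of 5) and chr2:12526364-12526384 on the minus strand for LAC2 (exon 5 of 6).

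The well-paired sites fell into 2 kinds. LAC4, LAC17 and CKB3, all known targets of miR397, paired best without a bulge, with scores of 2.5, 2.5 and 3.0 as computed here (CKB3 was deposited with 4.0). The other 6, in SCE1, HEMC, AT5G18420, TDX, FTSH9 and VPS11, paired best with 1 unpaired base in the guide or the transcript. Without that bulge the same places scored between 5 and 15, and SCE1 scored 8. With it, FTSH9 scored 4.5 as computed here, above the limit of 4, although it was deposited with 4.0. Among the 33 weakly paired sites, 11 paired best without a bulge and 1 of them, in G2484-1, scored 4. Of all 42 placed sites, 38 lay in coding sequence, 3 in the 3′ UTR and 1 across the border of coding sequence and UTR.

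A few sites of miR398 and miR408 are shown for their pairing as well, CCS and PAA2 as the most abundant of each family, NUDT12 as the one with an adjusted p under 0.05 in the deposited lists, and ARPN for its close pairing. CCS (AT1G12520) is the copper chaperone of superoxide dismutase, PAA2 (AT5G21930) is the copper-transporting ATPase of the thylakoid, NUDT12 (AT1G12880) is a nudix hydrolase, and ARPN (AT2G02850) encodes plantacyanin, a known target that was not listed.
CCS, miR398a-3p: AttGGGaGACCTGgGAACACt
PAA2, miR408-3p: GaCAGGGAAGgGGCAGTGgCAa
NUDT12, miR408-3p: aaCAGaGGAAGAGaCAGTGCAT
ARPN, miR408-3p: GCCAaGGGAAGAGGCAGTGCAT
These are at chr1:4267521-4267541 on the minus strand (exon 5 of 5), chr5:7247777-7247798 on the plus strand (exon 12 of 15), chr1:4390962-4390983 on the plus strand (exon 5 of 5) and chr2:827696-827717 on the minus strand (exon 1 of 2), all coding. PAA2, NUDT12 and ARPN pair best with 1 extra base in the transcript. As computed here with at most 1 bulge, the plantacyanin site had the lowest score of the 4, 1.0, against 5.0 each for CCS, PAA2 and NUDT12. The deposited scores were 6.0 for CCS and PAA2 and 5.0 for NUDT12.

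The known targets were mostly absent from the lists. Of 14 known targets of the 4 families, 4 were listed, LAC4, LAC17, CKB3 and CCS. The 10 others, LAC2, LAC3, LAC7, LAC12, LAC13, CSD1, CSD2, COX5b-1, ARPN and UCC2 (a blue copper protein, uclacyanin), had no line for any microRNA. Some of the unlisted targets pair closely. LAC2 scored 1.5, ARPN 1.0 and the miR857 site of LAC7 2.0, each lower than any listed site of the 4 families. Of the unlisted miR398 targets, COX5b-1 scored 3.0 with 1 extra base in the transcript, and CSD1 and CSD2 scored 5.0. Counting all 17 laccases, 2 were listed. Of 12 further genes of copper transport and use, among them SPL7, the plastocyanin genes PETE1 and PETE2, and the copper transporters COPT1 and COPT2, only PAA2 was listed. A gene without a line may have had few 5′ ends or none at the site.

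The sites were seen in few libraries and on few reads. The commonest value of a library was taken as 1 read, worth 0.251 to 0.340 RPM (read number relative to library size) in HS, 0.217 to 0.309 in Recovery and 0.316 to 0.429 in Control libraries. On this scale the 42 sites held 157 reads over the 9 libraries, and 51 of the 88 lines (58.0%) stood on 1 read or less, against 58.7% of lines in the whole series. No site was listed in all 9 libraries, where 13 of 1662 sites in the series were. Of the 42 sites, 19 (45.2%) were listed in 1 library, against 63.6% of sites in the series. Another 12 were listed in 2 libraries and 11 in at least 3, against 283 and 322 of the 1662. By group, 8 sites were listed in HS alone, 7 in Recovery alone, 10 in Control alone and 5 in all 3 groups. With 1 read the commonest value, a site seen in 1 group alone cannot be told from one missed in the others.

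As a check of the treatment, sites in a list of 9 heat shock genes, 7 of which had a site, held 33.6 to 85.4 RPM in HS, 5.64 to 11.1 in Recovery and 0 to 0.349 in Control libraries, so that the libraries stood apart by their labels. Sites in 8 photosynthesis genes, markers of green tissue of which 4 had a site, were present in every group, at means of 13.1, 7.38 and 24.2 RPM in HS, Recovery and Control. Implied totals were 2938238 to 3985906 reads in HS, 3236099 to 4609739 in Recovery and 2331769 to 3167323 in Control libraries. The Control libraries were the shallowest on average.

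The pipeline that made the lists gives each line an adjusted p, and few lines of the 4 families passed it. This p did not depend on local background alone. In Control 3, the sites of AT1G72230 and U2B'' had 1 read each and the same deposited ratio to local background, 1.32. Their authors' adjusted p was 0.645 at an Allen score of 6 and 0.270 at 4.5. A pass therefore also reflects close pairing. Under 0.05 were 6 of the 88 lines (6.82%), at 5 sites, where 4.14% of all lines passed. At LAC4 the authors' adjusted p was 0 in Recovery 3, at LAC17 it was 0.0331 in Recovery 2, and at HEMC it was 0.0423 in Control 3. SCE1 passed in Recovery 3 (0.0148) and in Control 1 (0.0431). The remaining line, NUDT12 in HS 1 with p listed as 0, was the only weakly paired one. No site passed in more than 1 library of a group.

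Set beside other guides, the families passed that criterion at a rate that went with pairing, which enters the p itself. The gap between the pairing classes was thus partly fixed in advance and is no finding about cleavage. Among well-paired lines, 5 of 27 (18.5%) were under 0.05 for the copper guides, against 116 of 618 (18.8%) for all other guides. Among weakly paired lines, 1 of 61 (1.64%) was under 0.05 for the copper guides and 4 of 2335 (0.171%) for all others. By comparison, all 16 lines of miR160 and 12 of 22 lines of miR171, guides of auxin response factors and of meristem factors, were under 0.05. These guides pair more closely: all 16 lines of miR160 and 13 of 22 of miR171 were well paired, against 27 of 88 here. For miR414, 35 of 562 lines (6.23%) were under 0.05, and 16.7% of its well-paired lines. These shares are given side by side without a test, since lines of 1 site in several libraries are not independent.

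The laccase sites appeared in Recovery and in no other group. LAC4 was listed in Recovery 3 alone, at 0.651 RPM, which is 3 reads, and had a deposited ratio to local background of 1.65, with 1 RPM added to both. LAC17 was listed in Recovery 2 alone, at 0.309 RPM, which is 1 read, with a ratio of 1.31. Both were at 0 in the other Recovery libraries and in all HS and Control libraries. Each therefore rested on 1 library, and neither entered the test between groups, which took sites listed in at least 3 libraries.

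SCE1 was the most abundant and most often listed of the 42 sites, with 30 of the 157 reads in 8 of 9 libraries. It held 0, 0.753 and 1.3 RPM in HS, 0.291, 0.618 and 0.868 in Recovery and 2.57, 1.40 and 1.89 in Control. Every Control library lay above every HS and every Recovery library, although the gap between HS 3 and Control 2 was smaller than 1 read. The log2 difference on the log2(RPM + 1) scale was −0.87 ± 0.40 (SE) for HS against Control and −0.89 ± 0.40 for Recovery against Control. Neither passed: the limma adjusted p (Benjamini-Hochberg over 322 sites) was 0.305 and 0.226, and unadjusted 0.0404 and 0.0371. In reads, SCE1 had 0, 3 and 4 in HS, 1, 2 and 4 in Recovery, and 6, 4 and 6 in Control.

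HEMC (AT5G08280), hydroxymethylbilane synthase, an early enzyme of the pathway to chlorophyll and heme, was the next most abundant. Its miR397b site, shown for its guide-side bulge, lies at chr5:2664757-2664776 on the minus strand, in coding exon 2 of 5.
HEMC, miR397b: CATAgCtgTGCACTCAATGA
HEMC held 0, 0.251 and 0.652 RPM in HS, 0, 0 and 0.434 in Recovery, and 1.29, 0 and 1.26 in Control. The groups overlapped, since Control 2 was at 0. The log2 difference was −0.44 for HS and −0.62 for Recovery against Control (SE 0.37 each), with limma adjusted p of 0.580 and 0.319 (Benjamini-Hochberg).

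The remaining well-paired sites were scattered over single libraries. AT5G18420, a subunit of the CCR4-NOT complex that removes poly(A) tails, was listed once in each group, at 0.753 RPM in HS 2, 1.24 in Recovery 2 and 1.29 in Control 1. CKB3 was also listed once in each group, at 0.652 RPM in HS 3, 0.309 in Recovery 2 and 0.698 in Control 2. Neither separated the groups. FTSH9, an FtsH protease, was absent from HS and held 0.582 RPM in Recovery 1 and 0.349 and 0.631 in Control 2 and 3. VPS11, a vacuolar sorting protein, held 0.309 RPM in Recovery 2 and 0.858 in Control 1. TDX, a thioredoxin with tetratricopeptide repeats, was at 0.349 RPM in Control 2 alone. These last 3 sites had 5, 3 and 1 reads in all.

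Among weakly paired miR397 sites, DWF1 (AT3G19820), an enzyme of brassinosteroid synthesis, was listed most often. It held 0, 0.251 and 0.652 RPM in HS, 0, 0.309 and 0 in Recovery, and 0.858, 0.349 and 0.947 in Control. All Control libraries lay above all Recovery libraries, but Recovery 2 and Control 2 each had 1 read there and differed only through depth. The log2 difference was −0.41 for HS and −0.63 for Recovery against Control (SE 0.33 each), with limma adjusted p of 0.572 and 0.267 (Benjamini-Hochberg). AT3G60210, a GroES-like protein with its site in the 3′ UTR, was the site that differed most between Recovery and HS. It was at 0 in all HS libraries, at 0, 1.55 and 0.868 RPM in Recovery and at 0, 0.349 and 0.631 in Control. Recovery 1 was at 0 like HS, and the log2 difference of 0.75 ± 0.35 (SE) did not pass (limma adjusted p 0.392, unadjusted 0.0457). AT4G00780, a TRAF-like protein, held 0.326 RPM in HS 3, nothing in Recovery, and 0.349 and 1.26 RPM in Control 2 and 3.

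A heat shock gene also stood among the miR397 sites. Hsp70-15 (AT1G79920), of the HSP70 family, was listed for miR397a at 0.334, 0.251 and 0 RPM in HS, 0, 0.309 and 0.217 in Recovery and at 0 in all Control libraries. Each of these values was about 1 read. In HS 1 the read was shared with HSP91 (AT1G79930), the neighbouring gene with the same 20 bases at the site, which received 0.00681 RPM of it. Both genes belong to 1 family, so that reads at this site cannot be assigned to either with certainty. The Allen score was 6.0, and the site was named after its values were seen.

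For miR398, CCS was the only known target with a listed site. CCS was listed at 1 read in HS 1 (0.340 RPM) and 1 read in Control 1 (0.429 RPM), with authors' adjusted p of 0.926 or higher. Of the other 2 sites, AT3G27200, a cupredoxin and thus of the blue copper protein type, had 1 read in Control 2, and the miR398a-5p site of AT5G03880, a thioredoxin family protein, had 1 read in Control 2. Both were named after their values were seen. Recovery libraries listed no miR398 site.

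miR408-3p was likewise absent from all Recovery libraries. Its summed signal was 1.02, 0 and 0.326 RPM in HS and 0.858, 1.74 and 0.947 in Control, so that HS 1 lay within the Control range. The HS 1 value came from NUDT12 alone, with 3 reads at 1.02 RPM and a deposited ratio of 2.02, at 0 in every other library. PAA2 held 0.326 RPM in HS 3 and 1.05 and 0.316 RPM in Control 2 and 3. The log2 difference of PAA2 was −0.34 for HS and −0.48 for Recovery against Control (SE 0.25 each), with limma adjusted p of 0.549 and 0.267 (Benjamini-Hochberg). AT1G72230, another cupredoxin named after its values were seen, had 1 read each in Control 1 and Control 3.

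miR857 did not separate the groups. Its 8 sites summed to 1.36, 0.251 and 0.326 RPM in HS, 0.291, 0.618 and 0 in Recovery, and 0.429, 0.349 and 1.26 in Control. The site with the largest sum, in ACS (AT5G36880), acetyl-CoA synthetase, held 0.429 and 0.631 RPM in Control 1 and 3 and was unlisted elsewhere. None of the 8 sites was listed in more than 2 libraries or passed the authors' p.

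Across sites, no comparison gave a call in the 4 families. Of the 42 sites, 11 were listed in at least 3 libraries and were tested, and limma called 0 of them in HS against Control, where 16 of 322 sites in the series (4.97%) were called. In Recovery against Control it called 0 of 11, against 2.8% of all tested sites, and in Recovery against HS 0 of 11, against 0.932%. In each comparison 1 of the 11 had an unadjusted p under 0.05, SCE1 in both against Control and AT3G60210 in Recovery against HS. The 16 alternative fits of each comparison also called 0.

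Most of the 11 tested sites had negative differences from Control, none of which passed the test. The filter of 3 libraries counted Control listings. FTSH9, AT4G00780, PAA2 and TROL were each listed in 3 libraries, 2 of them Control, and would not have entered without these. The same holds for AT3G60210, listed in 4 libraries, 2 of them Control. It also holds for AT5G18420 and CKB3, each listed in 3 libraries, 1 of them Control. All of these sites were among those lower in HS. The direction of such sites is thus partly set by the filter, which was the same for all 322 sites. For HS, 10 were lower and 1 higher, with a median log2 difference of −0.38, while of all 322 sites 210 were lower and 106 higher, with a median of −0.13. For Recovery, 9 were lower and 2 higher, median −0.41, against 204 and 115 of all sites, median −0.15. The site higher in HS was Hsp70-15, and the sites higher in Recovery were Hsp70-15 and AT3G60210. Both comparisons share the Control libraries. When libraries were rescaled to the same summed RPM, the median of all sites moved by 0.130 for Recovery, and the split became 7 lower and 4 higher there and 9 lower and 2 higher for HS. Over all 322 sites, 164 were then lower in Recovery and 191 lower in HS. Groups did not overlap, with HS lower, at 1 of 11 sites (SCE1), where 10.2% of all sites did so. With Recovery lower this held at 2 of 11 sites (SCE1 and DWF1), where 15.8% did.

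Summed per library, the sites of both pairing classes had lower means in HS and Recovery than in Control. Well-paired sites summed to 0, 1.76 and 2.61 RPM in HS, 0.873, 2.78 and 1.95 in Recovery, and 6.0, 2.79 and 3.79 in Control. HS 3 and Recovery 2 lay below Control 2, the lowest Control library, by less than 1 read. The means were 1.45 ± 1.33, 1.87 ± 0.957 and 4.19 ± 1.64 RPM in HS, Recovery and Control (SD, n = 3). Weakly paired sites averaged 2.42 ± 1.09 RPM in HS, 1.96 ± 1.53 in Recovery and 5.08 ± 0.798 in Control (SD, n = 3). They summed to 3.40, 1.25 and 2.61 RPM in HS, 0.873, 3.71 and 1.3 in Recovery and 4.72, 4.53 and 6.0 in Control. In RPM, neither HS nor Recovery overlapped with Control. The RPM of all listed sites (listed RPM) was lower in every Recovery library (125 to 181) than in every Control library (298 to 333). As a part of it, Recovery 2 (3.71 of 181) lay above all Control libraries. These held 4.72 of 298, 4.53 of 315 and 6.0 of 333 RPM. Recovery 1 and 3 and all HS libraries stayed below them. In rescaled libraries the weakly paired sums were 2.92 ± 1.91 RPM in Recovery against 4.01 ± 0.460 in Control, and the difference was −1.10 RPM in place of −3.12. For well-paired sites it was −0.553 RPM in place of −2.33. These sums are descriptions without a test.

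The lower sums of well-paired sites rested in part on SCE1 and on Control 1. The difference from Control was −2.74 RPM for HS and −2.33 RPM for Recovery. It was −1.47 and −0.963 RPM without SCE1, and −1.83 and −1.42 RPM without Control 1. For the sites that score 4 or less without a bulge, LAC4, LAC17, CKB3 and G2484-1, the difference was 0.0934 RPM for HS and 0.190 RPM for Recovery. The HS value was positive through 1 read of G2484-1 in HS 3, which is not a known target. Of the known targets among them, CKB3 averaged 0.217 RPM in HS, 0.103 in Recovery and 0.233 in Control, while LAC4 and LAC17 were listed in Recovery alone. These values rest on 1 to 3 reads in a library.

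The miR397 guides are also given apart. miR397b sites summed to 0, 1.25 and 4.56 RPM in HS, 1.46, 3.09 and 2.17 in Recovery, and 6.0, 4.19 and 7.26 in Control. In RPM, all Recovery libraries were below all Control libraries, and HS 3 was within the Control range. As a part of the listed RPM, Recovery 2 (3.09 of 181) lay above Control 2 (4.19 of 315). Recovery 1 and 3 stayed below all Control libraries. miR397a sites summed to 0.681, 1.51 and 0 RPM in HS, 0, 2.78 and 1.08 in Recovery, and 3.0, 0.349 and 0.316 in Control, and the groups overlapped. Whether the guides differed in their response was not tested.

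The share of all listed signal gave a less clear picture than RPM. The 4 families held 1.11%, 1.77% and 1.51% of the listed RPM in HS, 1.39%, 3.59% and 1.89% in Recovery, and 3.59%, 2.32% and 2.94% in Control. HS libraries were all below Control, while Recovery 2 was level with the highest Control library. The listed RPM of a library ranged from 170.2 to 345 in HS, 125 to 181 in Recovery and 298 to 333 in Control. In this total, the sites of the heat shock genes averaged 60.3 RPM in HS, 7.92 in Recovery and 0.116 in Control. Their part in the lower HS shares was not tested, nor was the part of the total in the lower sums of Recovery.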

How the data were processed

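nanoPARE reads of 9 libraries were processed by the authors with the public nanoPARE pipeline, and the submitters' processing notes name TAIR10. For the pipeline version and the microRNA set, nothing is given in the sources used here. Each deposited list holds 1 line per guide, transcript and slice site, per library, without pooling. The slice-site signal was deposited in RPM. The deposited ratio sets it against local background, with 1 added to both. The deposited p-value is adjusted by the authors per line, and lines up to 0.999989 are kept. The deposited Allen score penalises unpaired bases.

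Groups came from sample titles. A site not listed was set to 0 RPM, which may stand for few reads or none. Reads were RPM divided by the commonest value of the library. Because 89.2% to 94.1% of values were whole within 0.01 of a read, no count model was used. PCR copies could not be told from separate molecules. limma (3.58.1 in R 4.3.3) with trend was fitted to log2(RPM + 1) of sites listed in at least 3 of 9 libraries, all groups in 1 fit, two-sided, with Benjamini-Hochberg adjustment at 0.05. The scale understates changes of low sites. The fit was first run on simulated reads that held counting noise only, without added spread between replicates. That run gives no power or error rate for these data. Comparisons with Control share its libraries. Python 3.11.15, pandas 2.3.3 and NumPy 2.4.6 were used.

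Sites were placed on TAIR10.1 transcripts by pairing with at most 1 bulge. All 42 were placed, the score was equal to the deposited one at 22, within 0.5 at 33 and within 1 at 41. The deposited position lay 1 base before the transcript base opposite guide base 10 at 10 sites and −110 to 488 bases away at the others. Of 5 transcripts with a site of another guide, 4 gave the same shift for both. Coordinates are 1-based and are those of the pairing match.

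The guides, gene lists and tests were chosen with earlier results of these data known. Sites were named if well paired, if called, if under the authors' p of 0.05, if listed in at least 6 libraries, if among the 8 largest summed RPM or the largest of a family, or if known targets or copper genes. Alternatives were another pseudocount, other filters, 2-group fits, a replicate block, rescaled libraries, other pairing classes and leaving out each library.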

Additional observations from a re-analysis of the deposited data

How the results depend on the processing

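The log2 differences of SCE1, HEMC and DWF1 against Control and of AT3G60210 between Recovery and HS kept their direction under every alternative run. PAA2 kept its direction against Control in the 13 of 16 alternatives in which it was tested. Without HS 3, Control 2 or Control 3, the libraries that list it, PAA2 did not pass the filter and was not tested. In any of the 16 fits per comparison, 0 sites of the 4 families were called. The smallest adjusted p among their sites ranged over the alternatives from 0.192 to 0.595 for HS against Control, from 0.112 to 0.490 for Recovery against Control and from 0.233 to 0.799 for Recovery against HS. Calls over all sites ranged from 5 to 17, 1 to 14 and 0 to 13 in these comparisons: 5, 10 and 0 in 2-group fits, 15, 4 and 5 without a filter, 9, 5 and 4 with rescaled libraries, against 16, 9 and 3 as reported, and 14 for Recovery against Control at a pseudocount of 0.25 RPM.

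Same-numbered libraries did not deviate together (correlations of −0.098 to 0.099), so the numbers were not taken to pair them. With the number as a replicate block, 0 sites of the families were called, and 14, 11 and 3 of all sites, with a smallest adjusted p of 0.333, 0.257 and 0.413 for the families' sites.

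The summed RPM differences depended on the pairing class. For HS minus Control, the well-paired difference of −2.74 RPM became 0 with a score limit of 3, and 0.0934 in classes by the score without a bulge, a setting added after the data were seen. The weakly paired one of −2.66 RPM became −5.40 and −5.49 under the same settings, and 0.340 with lines under the authors' p of 0.05 only. For Recovery minus Control, the well-paired difference of −2.33 RPM became 0.320 and 0.190 under the same class settings, −0.670 with the authors' p, −0.553 in rescaled libraries, and −0.963 without SCE1, also added later. The weakly paired one of −3.12 RPM became −5.77, −5.64, 0 and −1.10 under the class settings, the authors' p and rescaling. Without 1 library, the differences ran from −3.44 to −1.83 RPM (well paired) and −3.15 to −2.08 RPM (weakly paired) for HS minus Control, and from −3.03 to −1.42 and −4.0 to −2.58 RPM for Recovery minus Control. Recovery minus HS was 0.414 RPM for well-paired sites (−0.313 to 0.991 without 1 library) and −0.461 RPM for weakly paired ones (−1.33 to 0.0832), so no direction was read from it. The causes were not tested. Most lines (51 of 88) held 1 read or less, which limits the precision of single values.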
